A study of Mus musculus with 12 samples.

Results

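The genes described here encode translation initiation and elongation factors and the enzymes and inhibitors named after them. They are the gene names in the deposited clique tables that are Eif followed by a digit or begin with Eef1 or Eef2, without pseudogene names. There were 53 such names among the 16197 gene names of either table. All 53 were found in RefSeq (GRCm38.p6). The study mapped contacts between chromatin regions carrying H3K27ac, a histone mark of active promoters and enhancers, by Hi-ChIP in hepatocytes of male C57BL/6 mice. Young mice were 5 months old and old mice 25 months old. Each age had 6 libraries, from 2 biological replicates in 3 batches of technical repeats. Hepatocytes were pelleted at low speed from perfused, collagenase-digested livers. No transgene, drug or special diet is named for either age, but the animals came from different supplies, a commercial vendor for young and a stock of the US National Institute on Aging for old, so supply and age cannot be told apart.

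Initiation factors bring the small ribosomal subunit, the initiator tRNA and the mRNA together and find the start codon, and elongation factors carry aminoacyl-tRNA to the ribosome and move it along the message. Most are needed in every cell. The liver makes large amounts of secreted protein, and cells under stress slow initiation by phosphorylating eIF2 or by freeing the proteins that hold the cap-binding factor eIF4E.

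Each age is represented by 1 deposited network of 5 kb bins, called nodes, that the authors grouped into cliques and annotated with gene names. The number of nodes in the largest clique that lists a gene is called its clique size here, and 0 means that no clique of that age lists it. With 1 network an age there is no replicate check, no test and no error on any value, and how many reads went into a network is unknown. The old network was smaller, with 40304 nodes against 56928, and its mean clique had 6.75 nodes against 10.5. Clique size was smaller in old for 79.1% of all names and larger for 17.9%. The median of log2((old + 1)/(young + 1)) over all 16197 names was -1, and -0.40 after sizes were divided by the mean of their age. The young cliques listed 11 of 12 hepatocyte markers and the old 10, while none of 8 Kupffer cell markers was listed at either age. Summed over its markers, the clique size of hepatocyte genes came to 619 nodes in young and 312 in old. The sums were 29 and 3 for sinusoidal endothelial markers and 11 and 0 for bile duct markers. They were 8 and 7 for lymphocyte markers, and 2 and 0 for stellate cell markers. Young cliques listed 2 of 7 endothelial, 1 of 6 bile duct, 1 of 7 lymphocyte and 1 of 7 stellate cell markers. Unlisted at both ages were the hepatocyte marker Tf and, among others, Stab2, Lrat, Krt19 and Cd3e. The part of cells other than hepatocytes in the results below was not tested.

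Translation factor genes were in smaller cliques in old about as often as other genes, and were 2-fold lower somewhat more often than other genes when assigned by the authors' gene lists. Young cliques listed 48 of the 53 genes and old cliques 36. Both ages listed 31 of them (58.5%, against 60.7% of all gene names), young alone listed 17 (29.0% of all names) and old alone 5 (10.3% of all names). Over protein-coding genes these shares were 65.2%, 25.4% and 9.44%. The clique was smaller in old for 41 genes (77.4%), larger for 10 and equal for 2, where 79.1% of all names and 78.5% of protein-coding genes were smaller. Relative to the mean clique of each age, 33 of the 53 genes (62.3%) were below their young size and 20 above it, where 59.9% of all names were below. A change of 2-fold or more in size + 1 was called lower for 32 genes (60.4%) and higher for 6 (11.3%), where 50.2% and 12.4% of all names were called. Among protein-coding genes 48.6% were called lower and 11.9% higher. The median log2 value of the 53 genes was -2.32, below that of all names.

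Part of that median came from genes at 0 in old, for which no fold can be given. Among the 31 genes listed at both ages the median was -0.82, against -0.63 for all 9836 names listed at both, and 15 of the 31 (48.4%) were 2-fold lower, against 34.9% (35.7% of protein-coding genes), and 1 was 2-fold higher, against 3.52% (3.77%). For these 31 the median size was 19 in the young network and 8 in the old. When cliques were assigned by any node over the gene span instead of by the authors' gene column, 25 of 53 genes (47.2%) were 2-fold lower, close to the 45.2% of the 12751 names with a node over their span. By gene span, then, the share of lower genes did not stand out from the background. The call changed for 10 genes: Eef1d, Eef1g, Eif2d, Eif3a, Eif3i, Eif3k, Eif4g1 and Eif4h were no longer 2-fold lower, and Eif4e and Eif4g3 no longer higher. With cliques assigned instead by the 5 kb bin of the RefSeq start, 23 of 38 genes (60.5%) were 2-fold lower, against 49.1% of 8444 names. That alternative was chosen after seeing the data.

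**Figure D1:**
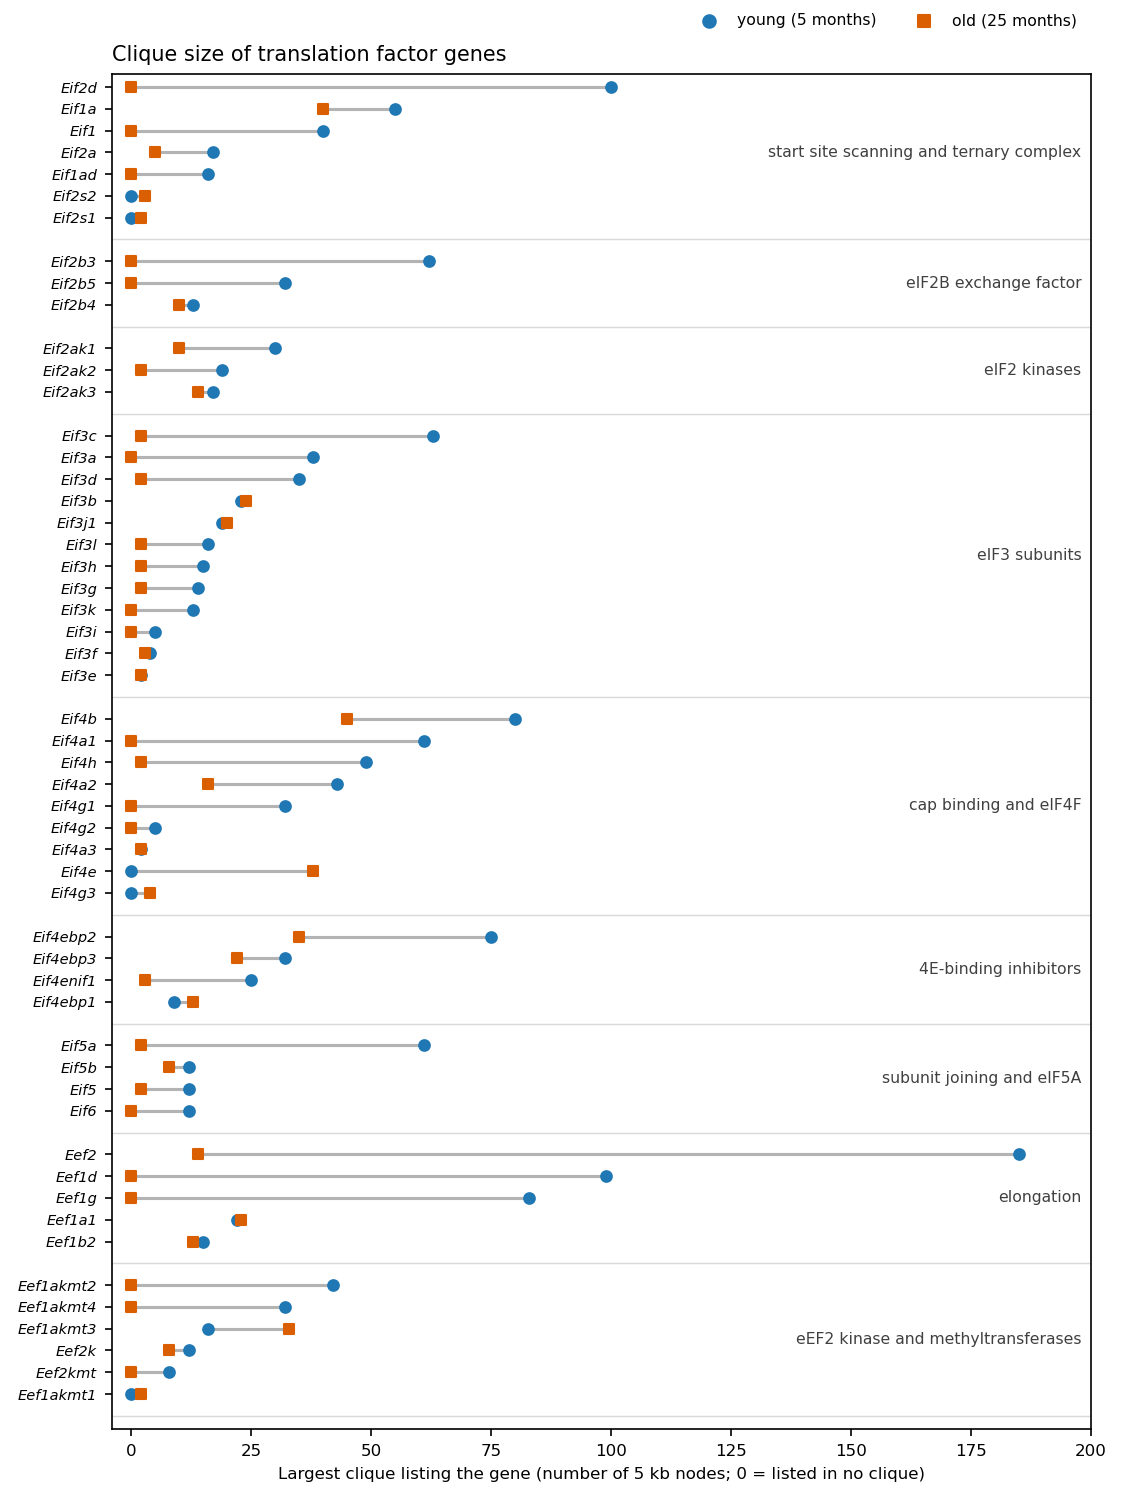
Clique size (number of 5 kb nodes, x axis) of each of the 53 genes, grouped by role, in the young network (circles) and the old network (squares). Most squares lie left of their circles, and Eef2 (185 and 14 nodes) spans the widest range. Relative to each age's mean clique, 8 of the 41 genes that are smaller in old turn to larger.

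**Figure D2:**
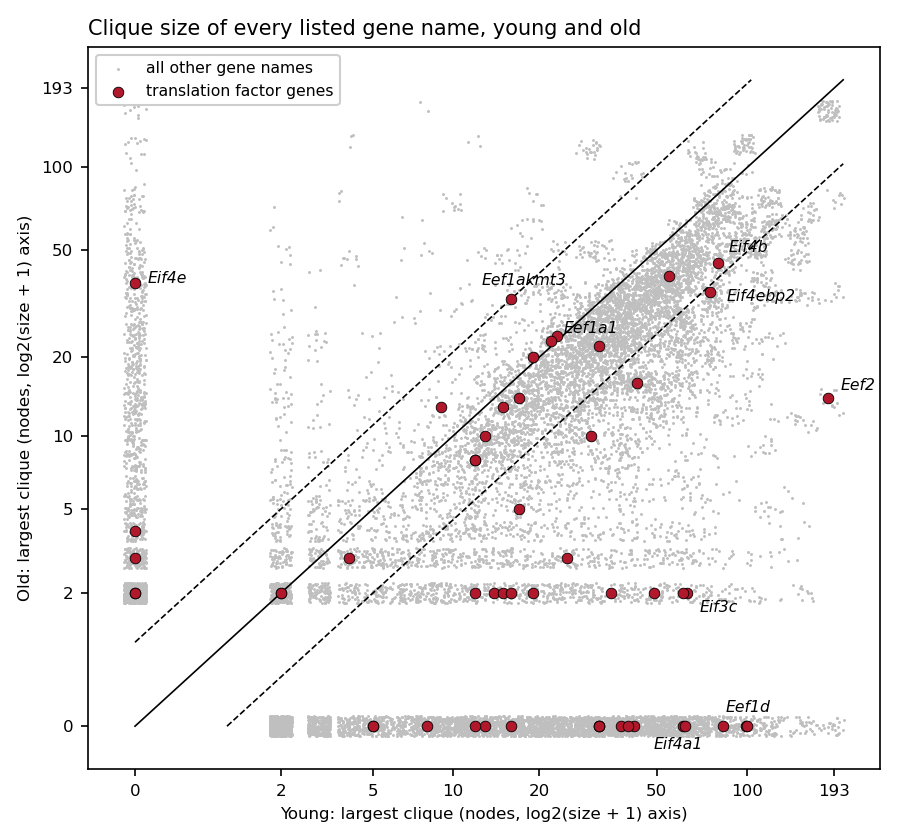
Young (x axis) and old (y axis) clique size of all 16197 gene names on log2(size + 1) axes, with the 53 translation factor genes as large points. The solid line marks equal size and the dashed lines a 2-fold change, and small jitter separates the grey points. A row of the genes lies at 2 nodes in old and another at 0.

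By the authors' gene lists, many of these genes were in an old clique of 2 nodes, the smallest that the network can hold. Of the 36 genes listed in old, 13 (36.1%) were in a clique of 2 nodes, where 15.7% of all listed names and 16.4% of protein-coding genes were. In young only 2 of 48 were, Eif3e and Eif4a3, against a background of 8.85% (9.41% of protein-coding genes). Both were still at 2 nodes in old, and Eif2s1 and Eef1akmt1 were unlisted in young, so not all of the 13 had shrunk. By gene span, old cliques of 43, 17 and 4 nodes lay over Eif4h, Eif5a and Eif3h. At the other end, 11 of the 48 (22.9%) were in young cliques of 50 or more nodes, near the 25.5% of all names. None of the 36 was listed in such an old clique, where 10.1% of all names were. By gene span, old cliques of 64 and 58 nodes lay over Eif2d and Eef1d, which they did not list. No gene was listed in several cliques of an age.

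Of the 5 elongation factor genes 3 were in large young cliques and 2-fold lower in old (60%, against 50.2% of all names), and 2 hardly differed. By gene span 1 of the 5 was 2-fold lower, where 45.2% of the 12751 names with a node over their span were. Eef2, which encodes the factor that translocates the ribosome (chromosome 10, 81176631 to 81182509), was in the young clique of 185 nodes and an old clique of 14. Eef1d and Eef1g, subunits of the exchange complex that recharges eEF1A, had 99 and 83 nodes in young and were unlisted in old. Old cliques of 58 and 44 nodes still lay over the spans of these 2 genes, and by gene span their log2 values were -0.76 and -0.90, under 2-fold. Eef1a1, which delivers aminoacyl-tRNA (chromosome 9, 78478453 to 78481724), had 22 nodes in young and 23 in old. Eef1b2, another exchange subunit, had 15 and 13, and was larger in old after division by the mean of the age. These 2 genes also kept their surroundings: 18 nodes were common to the young and old Eef1a1 cliques, and 12 to those of Eef1b2. As shares of the nodes in either clique, called the Jaccard index, these were 0.67 and 0.75. The index reached 0.5 for 6 of the 31 genes listed at both ages (19.4%), and for 40.9% of all names listed at both.

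The eIF3 subunits, parts of the scaffold that holds the small subunit to the mRNA, divided into 7 that old cliques of 2 or 3 nodes listed, 3 that none listed and 2 that kept their size. Young cliques listed all 12 and old cliques 9, and 8 were 2-fold lower (66.7%, against 50.2% of all names), with none 2-fold higher (against 12.4%). By gene span 5 of the 12 were 2-fold lower, where 45.2% of the 12751 names with a node over their span were. Eif3c fell from 63 nodes to 2, Eif3d from 35 to 2, Eif3h from 15 to 2 and Eif3g from 14 to 2. Eif3l had 16 nodes in young and 2 in old, in cliques without a common node. The 2 old nodes came from another young clique of 5. Eif3a, the largest subunit, had 38 nodes in young and was unlisted in old, and Eif3k and Eif3i had 13 and 5 nodes in young and none in old. Old cliques of 19, 12 and 3 nodes lay over the spans of these 3 genes, which gave log2 values of -0.96, -0.11 and -0.58 by gene span. In contrast Eif3b was in cliques of 23 and 24 nodes and Eif3j1 in cliques of 19 and 20. For Eif3b the size hid a change of partners, as the 2 cliques shared 8 nodes and the old one took 11 of its nodes from another young clique of 20. Eif3e stayed at 2 nodes, and Eif3f, at 4 and 3, turned to larger in old after division by the mean of the age. Over the 9 subunits listed at both ages the median fell from 16 nodes to 2, with 6 of the 9 at 2 nodes in old.

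Among the factors that bind the cap and unwind the mRNA, losses and gains both occurred. Eif4a1, the main helicase, had 61 nodes in young and was unlisted in old, where no node lay over its gene. Its close relative Eif4a2 was in cliques of 43 and 16 nodes. Eif4a3, a helicase of the exon junction complex, stayed at 2 nodes. Eif4b and Eif4h, which stimulate the helicase, were at 80 and 45 nodes and at 49 and 2. By gene span Eif4h was in an old clique of 43 nodes, a log2 value of -0.18 in place of -4.06. Eif4b had the largest old clique of all 53 genes. Krt8 and Krt18, keratin genes of hepatocytes, were listed beside it at both ages, a remark made after the lists were seen. The scaffold gene Eif4g1 had 32 nodes in young and was unlisted in old, yet its start lay in a 21-node old clique, and by gene span its log2 value was -0.58. Eif4g2 had 5 nodes in young and none in old.

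Eif4e, which encodes the cap-binding protein (chromosome 3, 138526191 to 138559696), went the other way. It was listed in no young clique and in an old clique of 38 nodes, the largest among the genes listed in old alone. Of those 38 nodes 33 lay in a young clique of 50 nodes, which did not list Eif4e although 1 of its nodes lay in the gene body. Both cliques listed Adh4, Adh5 and Adh7 of the neighbouring alcohol dehydrogenase cluster, chosen after the lists were seen. By gene span Eif4e was at 50 nodes in young and 38 in old. Eif4g3, another scaffold gene, was listed only in old, in a clique of 4 nodes, with a young clique of 54 and an old clique of 23 over its long gene span. For these 2 genes the direction turned by gene span. By the 5 kb bin of the RefSeq start it did not, with log2 values of 5.29 and 2.32, as by the gene lists.

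The inhibitors of eIF4E differed among themselves. Eif4ebp2 fell from 75 nodes to 35, and all 35 old nodes came from the young clique. Eif4ebp3 was at 32 and 22 nodes, with 21 shared, and was slightly larger in old after division by the mean of the age. Eif4ebp1, an inhibitor gene that responds to amino acid stress, was one of the few in a larger old clique, 13 nodes against 9 with 8 shared, a change under 2-fold. Eif4enif1, which encodes a transporter of eIF4E, fell from 25 nodes to 3.

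Of 7 genes grouped here under start codon selection and loading of the initiator tRNA, 5 were listed at 1 age only, as were 39.3% of all names. Eif2d, an alternative loading factor, had 100 nodes in young and was unlisted in old, although an old clique of 64 nodes lay over its span, which gave a log2 value of -0.64 by gene span. Eif1 had 40 young nodes and Eif1ad 16, and neither was listed in old. Eif1a had 55 and 40 nodes, with 36 shared, and was larger in old after division by the mean of the age. Eif2a fell from 17 nodes to 5. The eIF2 subunit genes Eif2s1 and Eif2s2 entered the lists only in old, with 2 and 3 nodes, and neither had a young node over its gene span.

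Genes that act on eIF2 had smaller old cliques or none. In eIF2B, the exchange factor that recharges eIF2, Eif2b3 and Eif2b5 had 62 and 32 nodes in young and were unlisted in old, and Eif2b4 had 13 and 10. Old cliques of 28 and 2 nodes lay over the spans of Eif2b3 and Eif2b5, which gave log2 values of -1.12 and -3.46 by gene span. Of the eIF2 kinase genes, Eif2ak1, which senses haem, had 30 and 10 nodes. Eif2ak2, which senses double-stranded RNA, had 19 and 2. Eif2ak3, which senses stress of the endoplasmic reticulum, had 17 and 14 with 11 shared. Eif2b4 and Eif2ak3 were larger in old once divided by the mean of the age. The amino acid sensor Eif2ak4 was listed at neither age.

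For the remaining factors, Eif5a, whose product carries the amino acid hypusine, fell from 61 nodes to 2. An old clique of 17 nodes also lay over the Eif5a span, a log2 value of -1.78 by gene span in place of -4.37. Eif5, the activator of eIF2 GTP hydrolysis, fell from 12 to 2, and Eif6, which keeps the ribosomal subunits apart, had 12 nodes in young and none in old. Eif5b, the subunit-joining GTPase, had 12 and 8. The eEF2 kinase gene Eef2k also had 12 and 8, and both turned to slightly larger in old after division by the mean of the age. Among methyltransferase genes that act on elongation factors, Eef1akmt2, Eef1akmt4 and Eef2kmt had 42, 32 and 8 nodes in young and none in old. Eef1akmt1 was listed only in old, with 2 nodes. Eef1akmt3, with 16 and 33 nodes, was the sole gene listed at both ages that was 2-fold higher, and lay just at that limit. Its old clique drew 12 nodes from the young clique that listed it and 13 from another of 17 nodes.

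Some members shared a clique and hence a value. The 48 genes listed in young lay in 45 cliques. Eif2b5, Eef1akmt4 and Eif4g1 shared the young clique of 32 nodes on chromosome 16 (20495001 to 20765000), and Eif4a1 and Eif5a that of 61 nodes on chromosome 11 (69670001 to 70230000). In old the 36 listed genes lay in 36 different cliques. With 1 gene kept per pair of young and old cliques, 30 of 51 (58.8%) were 2-fold lower, near the 56.0% that the same step gave for all names.

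The largest piece left of a large young clique in the old network often no longer listed the translation factor gene. For each young clique the old clique that held most of its nodes was found, and it was asked whether it still listed the gene. It did so for 6 of the 22 genes in young cliques of 30 or more nodes (27.3%), against 58.7% of all names and 60.3% of protein-coding genes in cliques of that size. With a minimum of 10 nodes the count was 16 of 41 (39.0%, against 58.8% of all names and 61.4% of protein-coding genes), and over cliques of every size 20 of 48 (41.7%, against 54.2% and 56.9%). This comparison was added after clique sizes had been seen, and it rests on the authors' gene column. Among the 22 genes, an old clique as large as that piece still lay over the span of Eef1d, Eef1g, Eif2d, Eif2b3, Eif3a, Eif4g1 and Eif4h. How often this held for all names was not counted.

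The clearest case was Eif3d. Of its 35 young nodes 30 formed an old clique of 32 nodes, which listed the myosin gene Myh9 as the young clique had, while Eif3d was in a separate old clique of 2. Of the 185 young nodes around Eef2, 120 lay in the old clique of 160 nodes, 12 in the old clique of 14 that listed Eef2, and 41 were absent. That clique of 160 also listed Mknk2, a kinase gene for eIF4E, which had been in the young clique with Eef2. For Eef1d 56 of 99 nodes lay in an old clique of 58, for Eif2d 51 of 100 in one of 64, and for Eef1g 40 of 83 in one of 44. For Eif1 25 of 40 lay in an old clique of 26, and for Eif4h 26 of 49 in one of 43. Old cliques of these sizes lay over the spans of Eef1d, Eif2d, Eef1g and Eif4h, though they did not list them, while no old node lay over Eif1. Eif3c differed, since the 29 of its 63 young nodes that remained were spread over 11 old cliques, the largest share being 9 nodes. Young cliques of the 48 genes kept a median of 58.8% of their nodes in the old network, near the 62.9% over all names. Nodes of 35 of the 48 (72.9%) lay in 2 or more old cliques, where the background was 58%.

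**Figure D3:**
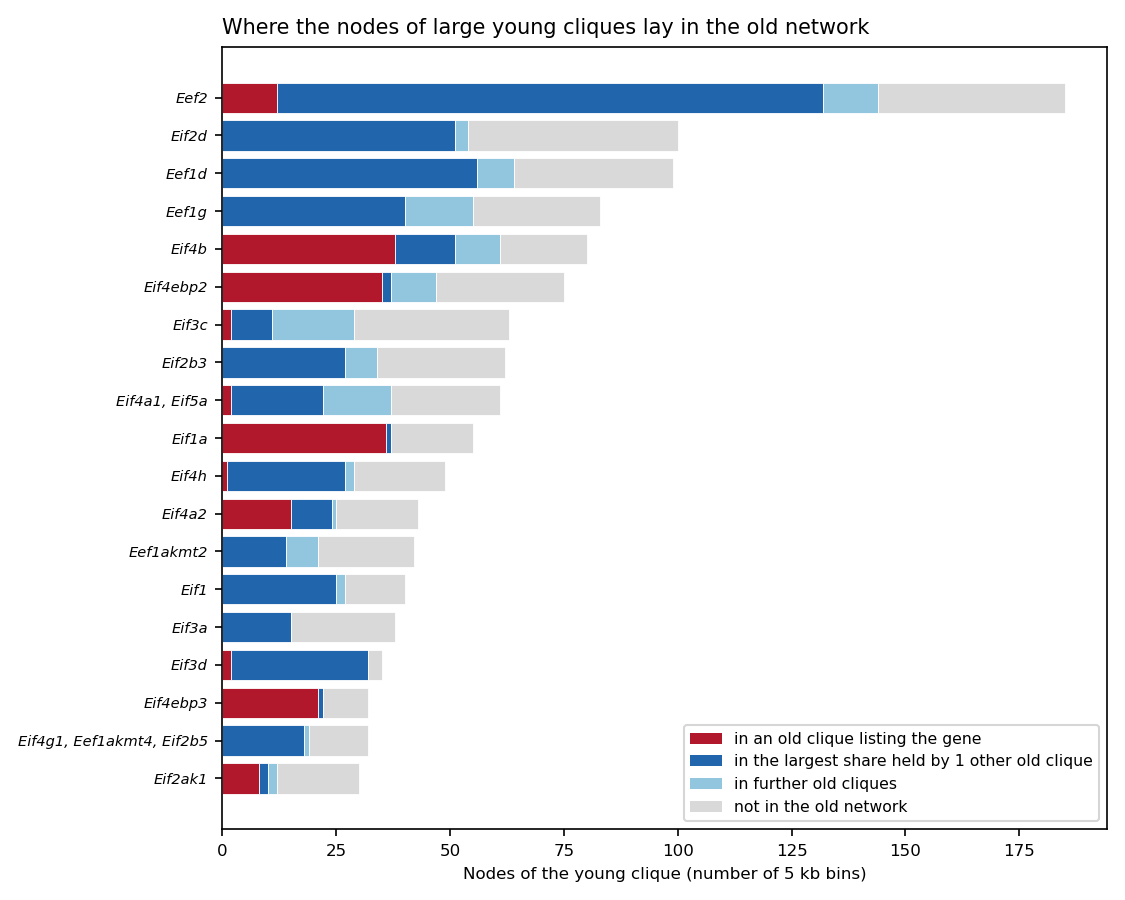
Fate of the nodes of each young clique of 30 or more nodes that lists a translation factor gene, with the number of nodes on the x axis and the genes on the y axis. Red nodes lie in an old clique that lists a gene named in that row (only Eif5a in the row of Eif4a1 and Eif5a), dark blue nodes in the other old clique with the largest share, light blue nodes in further old cliques and grey nodes in none. Red is widest for Eif4b, Eif1a and Eif4ebp2 (38, 36 and 35 nodes) and absent for Eif2d, Eef1d and Eef1g.

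Whether the promoter bin itself stayed in the network was examined independently of the authors' gene column. The start bin is the 5 kb bin that holds the RefSeq start of a gene, and 54 genes of the family had an entry in the promoter table, listed or not. The start bin was in the young network for 34 of them (63.0%, against 40.3% of 17491 protein-coding genes) and in the old for 28 (51.9%, against 32.6%). It was in both for 24 (44.4%, against 28.5%), in young alone for 10 (18.5%, against 11.7%) and in old alone for 4 (against 4.04%). Of the young start bins 70.6% were kept, as were 70.9% over all protein-coding genes, so young start bins of this family were kept at nearly the background share. Where the start bin was in both networks, its clique was smaller in old for 21 of 24 (87.5%) and larger for 3, near the 82.1% of protein-coding genes that were smaller. The medians were 22.5 nodes in young and 9 in old for the family, and 30 and 16 for protein-coding genes. Of 11 genes listed in young alone that had a promoter entry, 10 had their start bin in the young network and 1, Eif4g1, in the old.

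The promoter windows of genes with different fates are printed below to show what these bins hold at the start of transcription. Each runs from 150 bases before the RefSeq start to 20 bases from it, in the direction of transcription, on GRCm38.p6. Capitals mark matches, on either strand, to the E-box CACGTG, the cyclic AMP response element TGACGTCA, the CCAAT box, the Sp-type GC box GGGCGG or the TATA box read as TATAAA. In Eef1a1, Eef2, Eif4b, Eif4g1 and Eif3d the start bin was in both networks, in Eif4a1 and Eif2d in young alone, and in Eif4e in old alone.
Eef1a1, chr9:78481705-78481874, minus strand: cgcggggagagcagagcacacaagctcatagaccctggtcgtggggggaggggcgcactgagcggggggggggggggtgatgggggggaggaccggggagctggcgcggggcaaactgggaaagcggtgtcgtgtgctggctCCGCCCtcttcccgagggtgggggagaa
Eef2, chr10:81176481-81176650, plus strand: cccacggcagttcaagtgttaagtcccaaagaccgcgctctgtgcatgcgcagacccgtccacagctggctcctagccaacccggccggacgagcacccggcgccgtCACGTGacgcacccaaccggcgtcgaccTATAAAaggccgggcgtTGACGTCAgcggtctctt
Eif4b, chr15:102073623-102073792, plus strand: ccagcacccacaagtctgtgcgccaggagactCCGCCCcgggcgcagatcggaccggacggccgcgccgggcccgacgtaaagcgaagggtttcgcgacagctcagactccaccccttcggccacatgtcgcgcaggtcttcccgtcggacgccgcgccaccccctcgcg
Eif4g1, chr16:20672577-20672746, plus strand: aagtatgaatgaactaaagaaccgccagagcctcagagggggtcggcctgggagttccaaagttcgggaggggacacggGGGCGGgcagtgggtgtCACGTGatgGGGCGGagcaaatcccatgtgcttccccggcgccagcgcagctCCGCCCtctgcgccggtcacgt
Eif3d, chr15:77970805-77970974, minus strand: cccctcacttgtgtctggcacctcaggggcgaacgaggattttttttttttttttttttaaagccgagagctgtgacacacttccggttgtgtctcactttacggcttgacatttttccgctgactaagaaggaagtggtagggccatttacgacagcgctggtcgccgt
Eif4a1, chr11:69672404-69672573, minus strand: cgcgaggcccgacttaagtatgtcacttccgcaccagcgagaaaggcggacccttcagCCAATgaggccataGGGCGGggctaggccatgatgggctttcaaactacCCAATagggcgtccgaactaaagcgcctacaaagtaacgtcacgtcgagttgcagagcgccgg
Eif2d, chr1:131153057-131153226, plus strand: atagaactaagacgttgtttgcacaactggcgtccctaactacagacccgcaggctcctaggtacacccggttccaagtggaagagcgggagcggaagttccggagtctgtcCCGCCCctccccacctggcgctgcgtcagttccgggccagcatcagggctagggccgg
Eif4e, chr3:138526041-138526210, plus strand: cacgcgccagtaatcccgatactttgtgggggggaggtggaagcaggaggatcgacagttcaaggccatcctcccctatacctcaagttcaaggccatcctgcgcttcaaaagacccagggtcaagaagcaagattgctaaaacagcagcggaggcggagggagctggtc

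No motif was common to all 8 windows. The Eef2 window held CACGTG, TGACGTCA and TATAAA, and that of Eif4g1 held CACGTG beside 3 copies of GGGCGG, while the windows of Eif3d and Eif4e held none of the 5. In the full windows of 250 bases before to 50 after the start, CACGTG, the E-box read by Myc and by clock factors among others, was found in 12 of 54 family promoters (22.2%) and in 7.90% of all 17491. These 12 were Eef1akmt4, Eef1aknmt, Eef2, Eef2k, Eif1b, Eif3a, Eif3f, Eif3k, Eif4a1, Eif4g1, Eif4h and Eif5a2. GGGCGG, the core of the site of Sp factors, was in 72.2% against 46.3%, CCAAT in 31.5% against 39.0%, TATAAA in 9.26% against 13.3% and TGACGTCA in 1.85% against 2.34%. Each motif was searched on its own, so matches of different motifs may overlap. Median GC content was 61.3% in the family and 56.3% in all promoters. Such a match is a description of the letters and says nothing of binding.

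**Figure D4:**
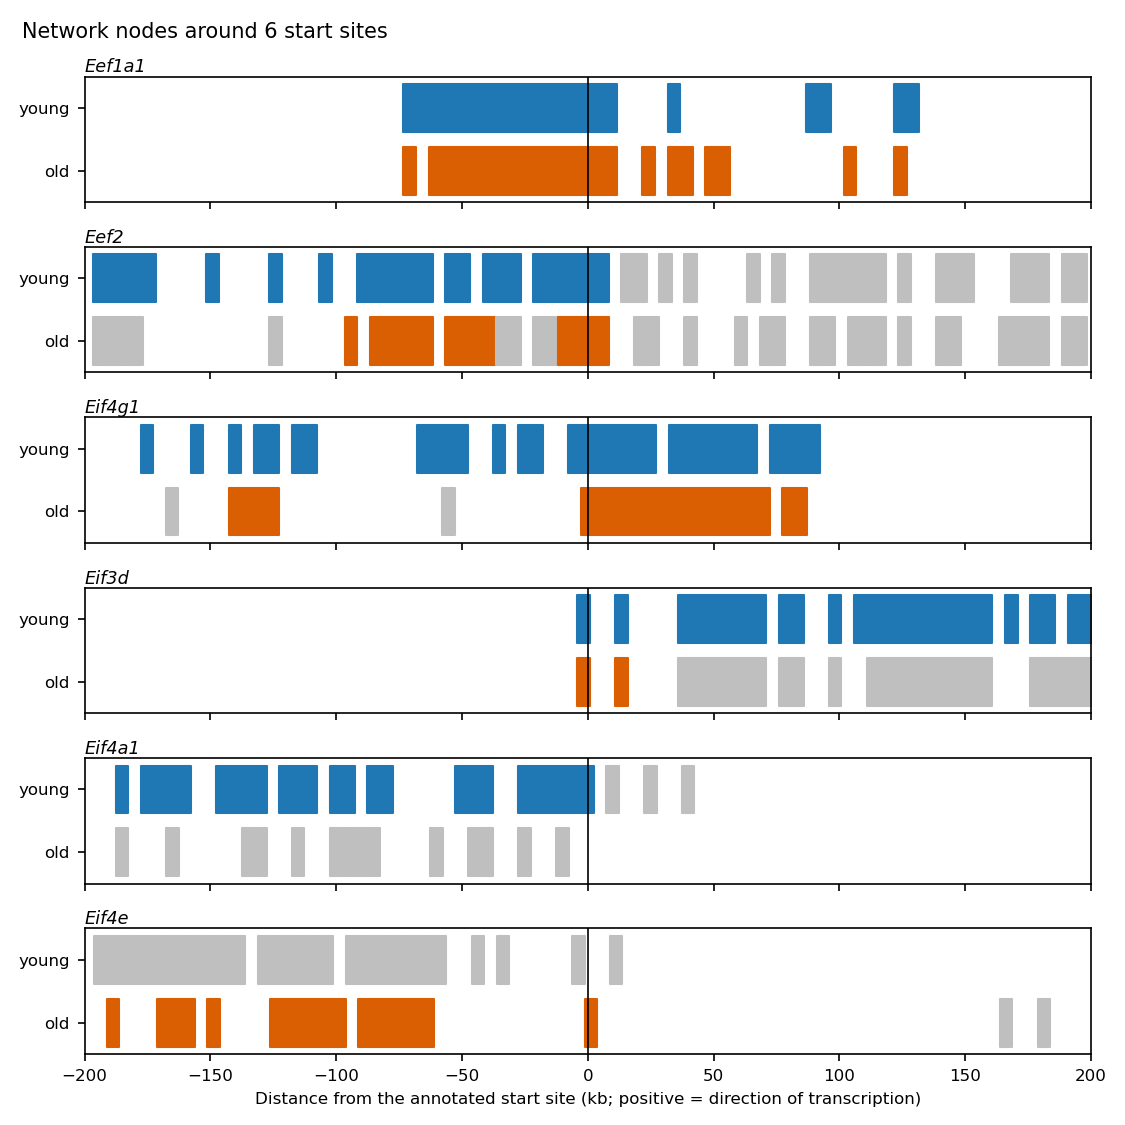
Nodes within 200 kb of 6 start sites (x axis, distance in kb in the direction of transcription) in the young (upper row) and old (lower row) network. Coloured nodes belong to the clique of the start bin or to one that lists the gene, and grey nodes to other cliques. Around Eef1a1 the coloured block is alike at both ages, around Eif3d it shrinks to 2 nodes in old while the nodes downstream remain in grey, at Eif4a1 no old node covers the start, and at Eif4e only an old node does.

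Other genes of translation were described in the same way, from lists chosen with earlier results of these data known. Of 25 partners of the factors, 17 were listed, with a median log2 value of -0.29. Of the 17, 4 were 2-fold lower in old (23.5%, against 50.2% of all names) and 1 higher (against 12.4%). The 4 were Rps6kb1, encoding a kinase of ribosomal protein S6 (67 nodes in young and none in old), Paip2, encoding an inhibitor of poly(A)-binding protein (35 and none), Denr, encoding a recycling factor (68 and 6), and Pabpc1, encoding poly(A)-binding protein itself (5 and none). The gene that was higher was Mtor, the growth kinase, at 5 and 26 nodes. The enzymes Dhps and Dohh, which make the hypusine of eIF5A, were at 72 and 59 and at 52 and 50 nodes, unlike their substrate gene Eif5a, and were chosen after their values were seen.

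In the integrated stress response, which follows phosphorylation of eIF2, 18 of 19 genes were listed, with a median of -1.35 against -1 for all names. Of the 18, 10 were 2-fold lower (55.6%, near the 50.2% of all names) and none higher (against 12.4%). The largest changes were of Fgf21, a fasting hormone (72 and 2 nodes), Atf3, a stress transcription factor (120 and 12), Impact, an inhibitor of Eif2ak4 activation (43 and 4), and Ddit3, a transcription factor of prolonged stress (10 and 2). Ppp1r15a, whose product directs dephosphorylation of eIF2, stayed at 72 and 74 nodes and was chosen after its values were seen. Of 9 termination and rescue genes 7 were listed and 4 were 2-fold lower (57.1%, against 50.2% of all names). They were Gspt1, a release factor (31 and 2), Secisbp2l (7 and none), Eefsec, the selenocysteine elongation factor (2 and none), and Zfp598, a sensor of collided ribosomes (109 and 51).

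Of 10 mitochondrial translation factor genes 9 were listed, with 4 lower (44.4%, against 50.2% of all names) and 2 higher (against 12.4%). Tufm, the mitochondrial elongation factor, shared the young clique of 63 nodes with Eif3c and was unlisted in old. Gfm1 had 16 nodes and none, Mtrf1 29 and 2, and Mrrf 27 and 4. Tsfm, the exchange factor of Tufm, rose with Eef1akmt3 from 16 nodes to 33 in the same cliques, and Guf1 was listed only in old, with 2. Of 22 genes for cytosolic tRNA synthetases and their scaffold 20 were listed, with a median of -0.75, against -1 for all names. Of the 20, 9 were lower (45.0%, against 50.2% of all names) and 2 higher (against 12.4%). Vars had 69 nodes in young and none in old, Eprs 18 and none, and Kars 9 and none, while Nars was listed only in old, with 15 nodes, and Mars1 went from 10 nodes to 69. Hars shared both of its cliques with Eif4ebp3, and Aimp2 both of its cliques with Eif2ak1.

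**Figure D5:**
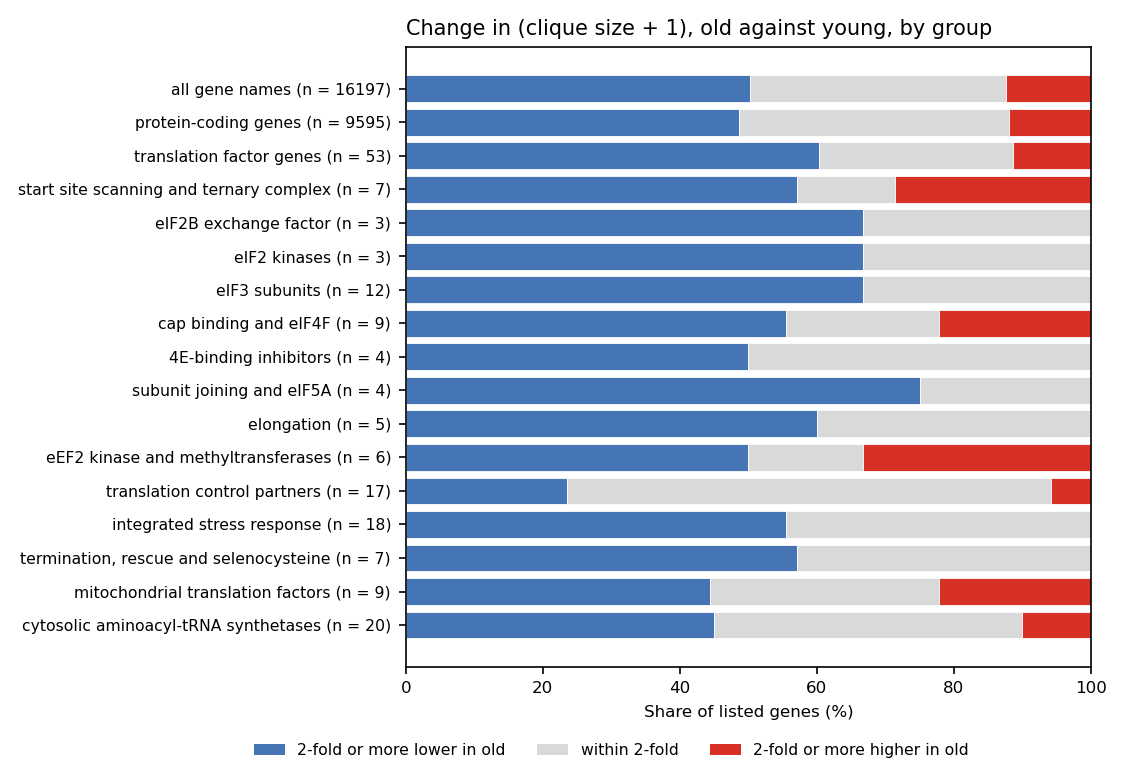
Share of listed genes (x axis, %) that were 2-fold or more lower, within 2-fold or 2-fold or more higher in old, as size + 1, for all names, protein-coding genes, the 53 translation factor genes, their role groups and 5 lists of other translation genes. The 53 genes have 60.4% lower against 50.2% of all names, and the role groups hold 3 to 12 genes each.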

How the data were processed

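Per the labels, H3K27ac Hi-ChIP was done on 12 libraries, and the submitters' processing notes name Bowtie2 and HiC-Pro with the builds mm10 and GRCm38. The authors deposited for each age a list of 5 kb nodes and a list of cliques with node number and gene names. Loop caller, clique method, promoter window and pooling of libraries: not given in the sources used here. Each age's network was treated as a pool of its 6 libraries. Deposited values are node numbers, not counts of reads, so depth and its precision are unknown.

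Clique size is the largest node number of a clique listing a name, and ages were compared as log2((old + 1)/(young + 1)) with a 2-fold limit. Names were matched to the RefSeq table by symbol or unique synonym. The start bins and promoter sequences came from RefSeq tables of GRCm38.p6, on which 40 of the 53 genes had an entry. A read-through gene with the start of Eef1akmt4 was left out of the family. Coordinates are 1-based. Python 3.11.15, pandas 2.3.3 and matplotlib 3.10.9 were used. The members and lists were chosen with earlier results of these data known. All members were named, and of each other list the 4 with the largest change. Genes of a list that shared a clique with a member (Mknk2, Tsfm, Hars, Aimp2) were also named, and Mtor, Guf1, Mars1, Dhps, Dohh and Ppp1r15a after their values were seen. Alternatives were the pseudocount, scaling, ranks, assignment by gene span or start bin, the fold, the minimum size and the members counted.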

Additional observations from a re-analysis of the deposited data

How the results depend on the processing

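The 53 genes gave 32 that were 2-fold lower in old (60.4%, against 50.2% of all names) and 6 higher (11.3%, against 12.4%). With all 53 genes kept, the lower count ran from 25 by gene span to 33 at a 1.5-fold limit. These were 47.2%, against 45.2% of 12751 names with a node over their span, and 62.3%, against 61.1%. The count was 15 of 31 for genes with a clique at both ages (48.4%, against 34.9% of all such names). By start bin it was 23 of 38 (60.5%, against 49.1% of 8444 names). With percentile ranks it was 30 (56.6%, against 39.4%) and relative to each age's mean clique 29 (54.7%, against 41.2%). The higher count was 1 with a pseudocount of 5 (1.89%, against 5.98% of all names) and 11 with percentile ranks (20.8%, against 22.2%). For genes with a clique at both ages the higher count was 1 (3.23%, against 3.52%). The median log2 value, -2.32, stayed below 0 and below that of all names under every alternative run. It was -1.22 with a pseudocount of 5 (all names -0.61), -1.85 after division by the mean of the age (-0.40), and -0.90 by gene span (-0.81). It was -2.46 for the 40 factors without kinases, inhibitors and methyltransferases, -2.12 with 1 gene per pair of cliques (-1.44) and -0.82 for genes listed at both ages (-0.63). By start bin it was -1.85 (-0.96), and with cliques of 3 or more nodes -3.17 (-1.08), where 20 of 49 genes (40.8%) were listed at both ages, against 59.1% of all names. The last 2 alternatives and the comparison of remaining pieces were chosen after seeing the data. By gene span Eif4e and Eif4g3 reversed, to -0.39 and -1.20, as young nodes lay in their gene bodies. By start bin they kept their values of 5.29 and 2.32.

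No paired analysis was possible because the young and the old files hold 1 pooled network each, and leaving out a replicate was not possible either. The read depth of both networks is unknown, which limits what a gene listed in no clique shows.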

Other observations

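Small RNA genes inside translation factor genes carry entries of their own in the clique tables. Of 20 such genes, 10 were listed, and 6 of them had the clique sizes of their host. The other 4 differed. Snord66, a small nucleolar RNA gene in Eif4g1, was in cliques of 32 and 21 nodes while its host had 32 and none. Snora19 and Mir3084-2, both in Eif3a, were listed only in old, in a clique of 19 nodes, where the host had 38 nodes in young and none in old. Snora81, in Eif4a2, had 43 nodes in young and none in old, against 43 and 16 for its host. An old clique thus still lay over Eif4g1 and Eif3a, which the tables listed in none.

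Of 70 genes of the family in the RefSeq table, 17 were listed at neither age. They included Eif2ak4, Eif2b1, Eif2b2, Eif3m, Eif4e2, the X-linked genes Eif1ax and Eif2s3x, the Y-linked Eif2s3y, and tissue-restricted relatives such as Eef1a2 and Eif4e1b. For 13 of the 17 no node of either network lay over the gene. The other 4 had young nodes only, which were 4 for Eif2ak4 and 1 each for Eef1e1, Eif2b1 and Eif4e2.

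Of the 17 translation factor genes listed in young alone, 10 (58.8%) still had an old node over their gene span. The share was 41.4% over protein-coding genes listed in young alone. Over all names listed in young alone it was 24.7%, but these include names without a RefSeq match, which counted as having no node. All 53 translation factor genes had a match, so that share is not a like comparison.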
